A study of Mus musculus with 11 samples.

Results

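The transcripts of 10 subunits of Polycomb repressive complex 2 (PRC2) were followed in mouse embryonic stem cells (ESCs): Eed, Suz12, Ezh1, Ezh2, Rbbp4, Rbbp7, Jarid2, Aebp2, Mtf2 and Phf19. They were taken by gene symbol from the 23284 genes listed for each library, and all 10 were above 0 in every library. The data are RNA-Seq of 11 libraries in 5 groups. WT ESCs and ESCs that carry a triple knockout of Tet1, Tet2 and Tet3 (TKO) were taken untreated (0 h) or after 4 h in 10 µg/ml α-amanitin, a toxin that blocks RNA polymerase II. Each of these 4 groups had 2 libraries of ribodepleted total RNA. A further 3 libraries were made from polyadenylated RNA of WT ESCs. All cells were kept on gelatin with serum and leukemia inhibitory factor. The number of TKO clones and the relation of the WT to the TKO line are not given in the sources used here. The study describes the α-amanitin experiment as biological duplicates, without saying whether these were separate cultures, and p-values measure the spread between these libraries.

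PRC2 is the enzyme complex that methylates lysine 27 of histone H3, a mark that keeps developmental genes silent in ESCs. Its core is made of the methyltransferase Ezh2 or its paralog Ezh1, the scaffold Suz12, the reader Eed, which binds the methylated histone tail and stimulates the enzyme, and the histone chaperones Rbbp4 and Rbbp7. Accessory subunits bind Suz12 in alternative assemblies: the Polycomb-like proteins Mtf2 and Phf19 in one, Jarid2 and Aebp2 in the other. Tet proteins oxidize 5-methylcytosine to 5-hydroxymethylcytosine (5hmC) in DNA, and the study asked about the same mark in RNA, with Eed and Jarid2 among the transcripts whose stability it followed by RT-qPCR.

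The stretches that the study's RT-qPCR primers amplify from these transcripts are printed because they fix which part of Eed and Jarid2 that assay reads; capitals mark the primer sites. They were read from the GENCODE coding transcripts on mm9. The Eed stretch is 93 bases long, joins exons 9 and 10 of 12, and has its primers at chr7:97110788-97110807 and chr7:97104873-97104892. The Jarid2 stretch is 114 bases long, joins exons 2 and 3 of 18, and ends with the primer at chr13:44943727-44943748. Both lie within coding sequence.
Eed: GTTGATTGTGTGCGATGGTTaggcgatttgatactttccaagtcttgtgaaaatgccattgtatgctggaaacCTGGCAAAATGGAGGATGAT
Jarid2: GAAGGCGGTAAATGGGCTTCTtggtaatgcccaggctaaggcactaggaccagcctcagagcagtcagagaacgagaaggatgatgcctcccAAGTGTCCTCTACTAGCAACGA

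The promoters of Suz12 and Eed are shown because these 2 core genes moved farthest, in opposite directions, between the genotypes, and because CpG sites, the substrate of DNA methylation and of Tet proteins, are unequally dense in them. The sequences come from RefSeq on GRCm38.p6, from 250 bases before to 50 bases after the start, and capitals mark CpG. The Suz12 promoter (chr11:79992856-79993155, plus strand) holds 41 CpG, more than 96.5% of the 32851 promoters of this length. The Eed promoter (chr7:89980927-89981226, minus strand) holds 17, more than 68.6% of them. The median promoter holds 7.
Suz12: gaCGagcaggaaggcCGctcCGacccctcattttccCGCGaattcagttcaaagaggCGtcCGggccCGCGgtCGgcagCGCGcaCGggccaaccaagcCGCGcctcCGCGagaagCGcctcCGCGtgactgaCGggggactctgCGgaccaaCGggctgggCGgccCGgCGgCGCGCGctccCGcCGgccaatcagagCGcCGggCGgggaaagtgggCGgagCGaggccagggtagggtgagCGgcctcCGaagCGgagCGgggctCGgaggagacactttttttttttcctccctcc
Eed: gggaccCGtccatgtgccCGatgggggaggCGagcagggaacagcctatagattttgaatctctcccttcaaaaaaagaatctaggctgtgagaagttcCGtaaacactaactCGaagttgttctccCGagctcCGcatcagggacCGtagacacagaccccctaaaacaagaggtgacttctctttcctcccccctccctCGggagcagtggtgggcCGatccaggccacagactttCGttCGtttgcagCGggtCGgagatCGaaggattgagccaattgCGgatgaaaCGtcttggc
Both hold the letters CCAAT 1 time, searched on both strands, as do 37.4% of all promoters at least once. Neither holds TATAAA (13.6% of promoters), nor TTTCGCGC or TTTGGCGC, letters of E2F sites (0.323% and 0.514% of promoters). Among the promoters of the 10 genes, TTTGGCGC was found only in that of Ezh2.

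The libraries were deep enough for every member. Totals recovered from the TPM steps ran from 25507874 to 29781366 reads in the ribodepleted and from 72639837 to 82129168 in the polyA libraries, and the fewest reads behind a member's value were 592, for Phf19 in WT at 0 h. TPM is a length-corrected share of a library's transcripts, so levels of different genes can be compared. In ribodepleted libraries, the noncoding RNAs Rpph1 and Rmrp took 12.2% to 14.7% of all TPM, against at most 0.00142% in polyA libraries, so values were divided by a size factor per library (scaled TPM) before groups were compared. As a check of the labels, Tet1 in TKO at 0 h changed by -2.11 and Tet2 by -2.64 on the log2 scale (limma adjusted p = 1.45e-06 and 3.24e-07), with transcript remaining in both. Tet3 was between 1.06 and 2.96 TPM in every library and did not separate the genotypes. Of 10 ESC markers, all were above 0 in every library, and the 8 fibroblast markers together summed to between 6.61 and 15.1 TPM.

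In untreated WT ESCs the subunits spanned a wide range of levels. Rbbp7 was the most abundant, with 412 and 398 TPM in the 2 ribodepleted libraries, above 97.4% of the tested genes. Eed came next with 298 and 281 TPM, followed by Rbbp4 with 221 and 219 TPM, Mtf2 with 224 and 194 TPM, and Jarid2 with 211 and 179.8 TPM. Mtf2 took in the values of Rbbp4 and overlapped those of Jarid2, so these neighbours in the order do not differ beyond their spread. Suz12 (136 and 122 TPM) and Ezh2 (88.2 and 80.1 TPM) were lower, and Aebp2 (42.5 and 37.8 TPM) lower still. Ezh1, the paralog that serves mainly in non-dividing cells, stood at 15.7 and 13.8 TPM, and Phf19 at 11.8 and 10.95 TPM, above 38% of the tested genes. Per length, therefore, Eed transcripts exceeded those of Suz12 and Ezh2 in every WT library. The order was not the same in the 3 WT polyA libraries, where Eed (306, 298 and 318 TPM) stood above Rbbp7 (289, 282 and 292 TPM). The 10 members summed to between 1535 and 1659.7 TPM in WT at 0 h and to between 1476 and 1480 TPM in TKO at 0 h.

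Some members resemble other loci, which bears on how far a value belongs to its gene. The coding sequences of Rbbp4 and Rbbp7 were identical at 78.8% of aligned bases, and their longest shared run was 20 bases, aaccatgaaggagaagtgaa, far under the read length. Ezh1 and Ezh2 were identical at 70.3%, with a longest shared run of 17 bases. Elsewhere in NCBIM37 (mm9), matches of at least 100 bases and 90% identity covered 100% of the coding sequence of Rbbp4 (2 loci) and of Rbbp7 (1 locus), 55.8% of that of Aebp2, 18.7% of that of Mtf2 and 13.8% of that of Suz12, and none of the other 5. Exons of Rbbp4, Mtf2 and Rbbp7 overlap exons of listed genes on the opposite strand: 782 bases with Sync, 395 with Tmed5 and 174 with Txlng. The libraries were strand-specific, but the strand setting of the counting is not stated, so those members' values are uncertain by an amount that was not tested.

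To ask how PRC2 transcripts stand in cells without Tet proteins, TKO and WT ESCs were compared at 0 h. Suz12 was 1.70-fold higher in TKO, and Aebp2, Ezh1 and Phf19 rose by between 1.29-fold and 1.34-fold, whereas Eed, Mtf2, Jarid2, Rbbp4, Ezh2 and Rbbp7 fell. All 10 passed limma's test at an adjusted p under 0.05, 4 higher and 6 lower, and the libraries of the groups did not overlap for any of them. This must be read against the background: the libraries did not overlap for 81.7% of all tested genes, and 56.1% of the 12467 tested genes passed, 27.8% higher and 28.3% lower (33.4% and 17.6% without the scaling). The median log2 change of the members was -0.25, beside -0.020 for all tested genes. At the study's fold limit of 1.5, only Suz12 was called higher (10.4% of all genes) and none lower (5.45%). Without replicate 2 of WT or replicate 1 of TKO at 0 h, Eed also passed that limit (-0.59 and -0.60). In bulk RNA, a change in transcript per cell cannot be told apart from a change in the mixture of cells.

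**Figure D1:**
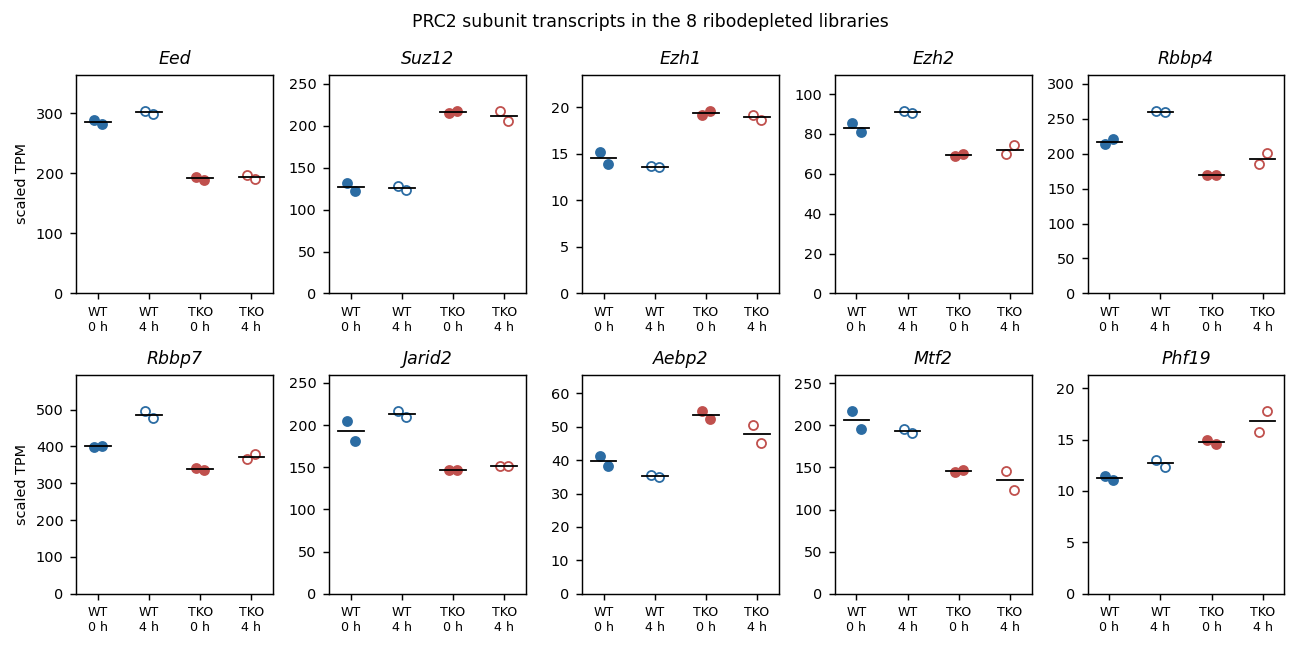
Scaled TPM (linear axes from 0) of each subunit in the 8 ribodepleted libraries, 1 point per library, filled at 0 h and open after 4 h of α-amanitin, with the group mean as a bar; WT blue, TKO red. TKO points lie above WT points for Suz12, Ezh1, Aebp2 and Phf19 and below them for the other 6 at both times.

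Among the core subunits, the scaffold Suz12 (chr11:79806608-79847625, plus strand) was at 132 and 122 scaled TPM in WT and at 215 and 218 in TKO. The TKO libraries sit far above both WT libraries, and the change was 0.76 (log2, SE 0.051, limma adjusted p = 7.06e-06). Eed (chr7:97103166-97129493, minus strand) went the other way, with 289 and 283 scaled TPM in WT and at 195 and 189 in TKO. Its change of -0.57 (log2, SE 0.043, limma adjusted p = 1.17e-05) leaves it at 0.672 of the WT level. Together these opposite moves turned the ratio of Suz12 to Eed transcripts within a library from 0.455 and 0.433 in WT to 1.11 and 1.15 in TKO, so that Suz12 passed from less than Eed to more than Eed.

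Of the catalytic subunits, Ezh2 (chr6:47480273-47545340, minus strand), the main methyltransferase of ESCs, was at 85.5 and 80.8 scaled TPM in WT and at 69.1 and 69.7 in TKO. Its change was -0.26 (log2, SE 0.049, limma adjusted p = 0.00217). Ezh1 (chr11:101052429-101087777, minus strand) rose from 15.2 and 13.9 to 19.2 and 19.6 scaled TPM, a change of 0.39 (log2, SE 0.060, limma adjusted p = 0.000656). The ratio of Ezh2 to Ezh1 transcripts was accordingly 5.62 and 5.80 in the WT libraries and 3.60 and 3.55 in the TKO libraries, and that of Suz12 to Ezh2 rose from 1.54 and 1.52 to 3.11 and 3.12. Ezh2 remained the more abundant paralog in all libraries.

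The chaperone subunits moved together. Rbbp4 (chr4:128984344-129012614, minus strand) was at 214 and 220.4 scaled TPM in WT and at 170.1 and 169 in TKO (log2 change -0.36, SE 0.050). Rbbp7 (chrX:159198334-159217024, plus strand) was at 399.7 and 400.9 in WT and at 342 and 336 in TKO (log2 change -0.24, SE 0.046). Their limma adjusted p-values were 0.000399 and 0.00215. The ratio of Rbbp4 to Rbbp7 stayed between 0.497 and 0.550 in all 8 ribodepleted libraries. Of all pairs of members, these 2 had the most similar pattern over the 8 libraries, with a root mean square difference of 0.050 in centred log2 values, beside 0.68 for Eed and Suz12, the least similar pair.

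Accessory subunits were split within both assemblies. In the Jarid2 and Aebp2 assembly, Jarid2 (chr13:44824843-45017012, plus strand), which recruits the complex to its targets, fell from 204 and 181 scaled TPM in WT to 146 and 147 in TKO (log2 change -0.39, SE 0.058, limma adjusted p = 0.000502). Aebp2 (chr6:140570970-140626993, plus strand), a zinc finger protein that stabilizes the complex, rose from 41.2 and 38.1 to 54.6 and 52.5 (log2 change 0.42, SE 0.064, limma adjusted p = 0.000618). The WT libraries of Jarid2 lay farther apart than its TKO libraries, yet the groups did not overlap.

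Of the Polycomb-like subunits, which bind unmethylated CpG-rich DNA, Mtf2 (chr5:108494693-108538023, plus strand) fell from 217 and 196 to 145 and 147 scaled TPM, a change of -0.49 (log2, SE 0.081, limma adjusted p = 0.000908). The scarcer Phf19 (chr2:34749277-34769546, minus strand) rose from 11.5 and 11.04 to 15.0 and 14.6, a change of 0.36 (log2, SE 0.070, limma adjusted p = 0.00226). Because Mtf2 is the more abundant, the summed transcripts of the Polycomb-like genes (Mtf2, Phf19 and Phf1) relative to Jarid2 plus Aebp2 changed from 0.947 and 0.959 in WT to 0.810 and 0.832 in TKO at 0 h. After 4 h of α-amanitin this ratio was 0.843 and 0.847 in WT against 0.820 and 0.739 in TKO. In the WT polyA libraries it was 0.637, 0.583 and 0.640, below every TKO library.

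**Figure D2:**
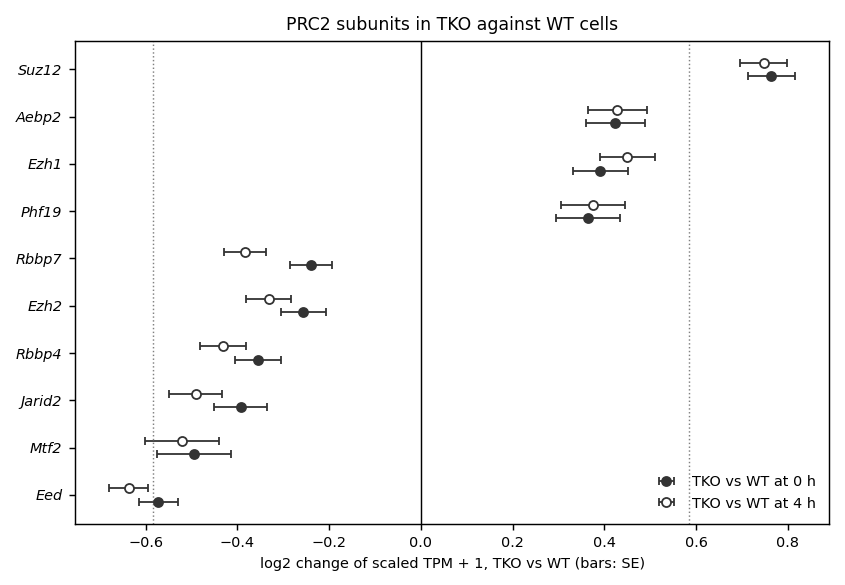
Log2 change of scaled TPM + 1 in TKO against WT ESCs for each subunit, at 0 h (filled) and after 4 h of α-amanitin (open); bars are SE and dotted lines mark 1.5-fold. Suz12 lies beyond 1.5-fold at both times, at 0.76 and 0.75, and Eed at 4 h only, at -0.64.

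The same comparison in cells kept for 4 h in α-amanitin gave the same directions, 4 higher and 6 lower, for all 10 members (59.4% of all tested genes passed, 29% higher and 30.4% lower, or 40.3% and 16.6% without the scaling). Suz12 was at 128 and 124 scaled TPM in WT and at 218 and 205 in TKO, a change of 0.75 (log2, SE 0.051, limma adjusted p = 7.51e-06). Eed was at 304 and 299 in WT and at 197 and 191 in TKO, a change of -0.64 (log2, SE 0.043, limma adjusted p = 6.44e-06), which passed the fold limit, as 5.83% of genes did on the lower side. That call ended without scaling (-0.48), after quantile normalisation (-0.43) and with centring per chromosome (-0.58), where Eed stayed lower but under 1.5-fold. Without scaling Ezh1 passed the limit instead (0.60), and without replicate 1 of TKO at 4 h Mtf2 did too (-0.64). The ratio of Suz12 to Eed was 0.420 and 0.413 in WT against 1.11 and 1.08 in TKO. The changes of Ezh1, Aebp2 and Phf19 lay between 0.38 and 0.45, and those of the other 5 between -0.52 and -0.33. The largest limma adjusted p among the 10 was 0.00173, and the groups did not overlap for any member, as for 78.2% of all genes. The libraries at 4 h are other libraries than those at 0 h, but of the same lines, so they do not stand for a further TKO line.

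Suz12 and Ezh1 lie on the chromosome whose genes as a whole stood highest in TKO. The 1015 tested genes of chromosome 11 had a median log2 change of 0.25 at 0 h and at 4 h, and those of chromosome 1, which holds no member, 0.18 and 0.20. The medians of the other 18 chromosomes lay between -0.11 and -0.00043 at 0 h. The 10 tested neighbours of Suz12 had a median of 0.14 (5 higher and 1 lower), and those of Ezh1 a median of 0.27 (7 higher and 1 lower). Those of Eed had a median of -0.22 (2 higher and 5 lower), and the medians around the other 7 members lay between -0.17 and 0.16. When each library was also centred per chromosome, a setting chosen after these medians were seen, Suz12 still differed by 0.50 (limma adjusted p = 7.43e-05), below 1.5-fold. Ezh1 then differed by 0.13, with a limma adjusted p of 0.11 at 0 h, and by 0.19, with a limma adjusted p of 0.028, at 4 h. The other 8 members kept their direction and passed at both times, among 53.5% of genes passing at 0 h. A difference between the 2 lines cannot be told apart from the genotype in this design.

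**Figure D3:**
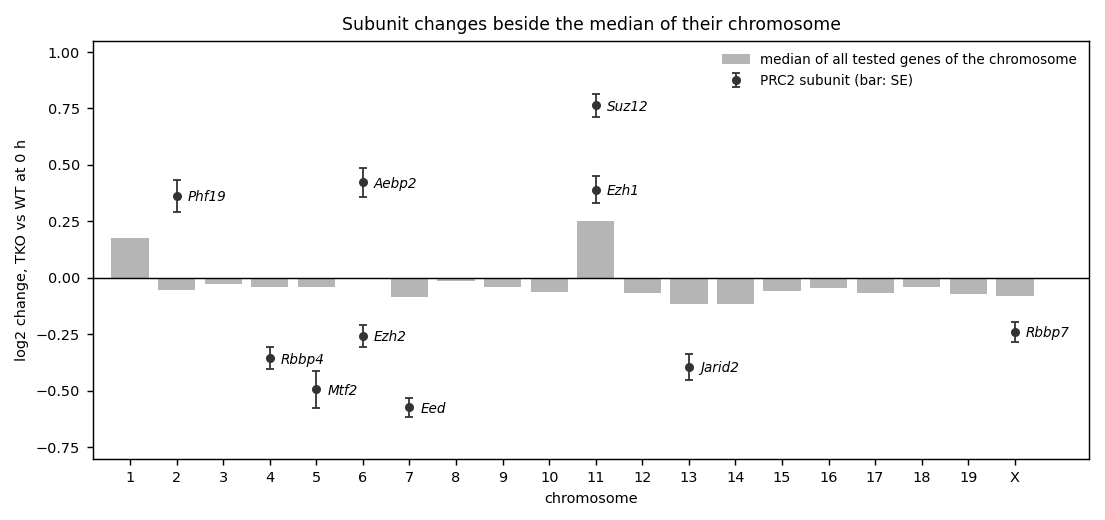
Log2 change in TKO against WT at 0 h for each subunit (points, with SE) beside the median change of all tested genes of its chromosome (grey bars). Chromosome 11, which holds Suz12 and Ezh1, has the highest median at 0.25, followed by chromosome 1 at 0.18.

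Other genes of the pathway changed less uniformly at 0 h, where 56.1% of all tested genes passed, 27.8% higher and 28.3% lower. The 4 measured further accessory genes did not pass at 0 h: Phf1, the third Polycomb-like gene, differed by -0.19 and the gene listed as E130012A19Rik, an older symbol of Epop, by 0.00052 (limma adjusted p = 0.23 and 0.995). Of the demethylases that remove the PRC2 mark, Kdm6b rose from 1.89 and 1.28 TPM to 3.21 and 3.20 (log2 change 0.64, limma adjusted p = 0.00183), and Kdm6a, at 0.019, did not pass (limma adjusted p = 0.85). Of 17 genes for partners of Rbbp4 and Rbbp7 in other chromatin complexes, 4 were higher and 3 lower, with Chd3 (0.35) and Sin3b (0.32) the highest and Sin3a (-0.47) and Mbd3 (-0.36) the lowest of those passing. The other 10 did not pass, and the median of the 17 was -0.041, or 0.056 without scaling and 0.057 after quantile normalisation. At 4 h, 5 of the 17 were higher and 8 lower, where 59.4% of all tested genes passed. E130012A19Rik was then lower in TKO (log2 change -0.31, limma adjusted p = 0.0030).

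Of 37 developmental regulators that PRC2 is known to mark in ESCs, only 13 passed the filter on low values, a subset that is therefore not the whole list. The filter let some of them through by way of the genotype in which they are high, so their changes are given as values with no test or tally. Hand1, a mesoderm and trophoblast factor, was at 0.264 and 0.292 TPM in WT against 3.09 and 3.31 in TKO at 0 h, and Olig2, a neural factor, at 19.4 and 17.1 TPM in WT against 0.0547 and 0.0310 in TKO. Cdkn2a, a cell cycle inhibitor, was at 5.79 and 7.80 TPM in WT against 14.3 and 12.4 in TKO, and Gata4, an endoderm factor, at 2.09 and 1.86 in WT against 1.02 and 0.980 in TKO. In the 3 WT polyA libraries Cdkn2a was at 15.6, 16.2 and 16.7 TPM, above these TKO values, and Olig2 at no more than 0.0397 TPM. Hand1 (1.17, 1.12 and 1.24 TPM) and Gata4 (1.49, 1.56 and 1.45 TPM) lay there between the ribodepleted WT and TKO values. These 4 were picked as the 2 highest and 2 lowest passing changes at 0 h. That choice favours groups that do not overlap, as these did not in the ribodepleted libraries, nor did 81.7% of all tested genes. Over all 37, the sum at 0 h was between 64.9 and 66.7 TPM in WT and between 62.5 and 63.8 in TKO. Olig2 alone made up 19.4 and 17.1 TPM of the WT sums and at most 0.0547 TPM of the TKO sums. The nearness of the sums therefore does not show that the other genes stood level.

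Markers of cell state also differed between the genotypes, where 28.3% of all tested genes were lower and 27.8% higher in TKO at 0 h. Of 15 proliferation genes, 11 were lower in TKO at 0 h and the other 4 did not pass, with Ccne1 (-0.78) and Mcm2 (-0.57) the lowest and Rrm2 (-0.16) and Cdk1 (-0.14) the nearest to 0 of those passing; the sum of the 15 was between 4355 and 4546 TPM in WT and between 3965 and 4037 in TKO. Of 10 ESC markers, 6 were lower and 2 higher, with Zfp42 (-2.08) and Klf4 (-0.98) the lowest and Dppa5a (0.22) and Tdgf1 (0.13) the highest of those passing, and their sum was between 4745 and 4801 TPM in WT and between 4557 and 4612 in TKO. Zfp42 was at 513 and 478 TPM in ribodepleted WT, 126 and 123 in TKO, and 169, 165 and 175 in WT polyA libraries. Klf4 was at 49.1 and 48.9 TPM in ribodepleted WT, 27.8 and 24.5 in TKO, and 80.4, 80.2 and 82.1 in WT polyA libraries. The 8 fibroblast markers summed to between 9.27 and 9.45 TPM in WT and between 13.2 and 13.9 in TKO. Only 4 of the 8 were above the filter and tested, and 1 of these, Col1a2, passed (log2 change 1.18). The part of these shifts in the subunit changes was not tested.

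Genes with patterns close to those of Eed and Jarid2 over the 8 ribodepleted libraries were found by the root mean square difference of centred log2 values. For Eed they included Srpk2 (0.029) and Mettl16 (0.033). For Jarid2 they were Hirip3 (0.023), Zfp106 (0.029) and Sec16a (0.032). The log2 changes of these 5 genes in TKO at 0 h were between -0.59 and -0.41, beside -0.57 for Eed and -0.39 for Jarid2, and the Eed and Jarid2 patterns themselves differed by 0.094. The 5 genes were picked on these same libraries, so the closeness of their changes follows from the choice.

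Next, 4 h of α-amanitin were compared with 0 h to ask which subunit transcripts are lost sooner or later than others once transcription stops. TPM are shares, so a loss common to all transcripts cannot be seen, and a positive change is one relative to the typical transcript. Each of these comparisons shares its 0 h and its 4 h libraries with a comparison of TKO and WT above. In WT, Rbbp4 and Rbbp7 rose relative to the typical transcript and the other 8 did not pass: 2 of 10 passed limma's test, where 37.7% of all tested genes passed, 21.9% higher and 15.8% lower (3.18% and 25.2% without the scaling). Rbbp7 went from 399.7 and 400.9 to 495 and 477 scaled TPM, a change of 0.28 (log2, SE 0.046, limma adjusted p = 0.00607). Rbbp4 went from 214 and 220.4 to 261 and 259, a change of 0.26 (log2, SE 0.050, limma adjusted p = 0.00796). An unadjusted p under 0.05 was reached by 5 members (49% of all genes), and the libraries of 0 h and 4 h did not overlap for 9, all but Suz12 (72.9% of all genes). The changes of all 10 stayed under the 1.5-fold limit, which 0.0882% of genes passed on the higher and 2.01% on the lower side. The median of the 10 was 0.10, beside 0.029 for all tested genes. Without scaling these medians were -0.055 and -0.11, and after quantile normalisation -0.019 and 0.041. Whether the members lay above or below the typical transcript thus depended on the scaling.

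These calls rest on few libraries. Without replicate 1 of WT at 4 h, neither passed (limma adjusted p = 0.052 for Rbbp7 and 0.054 for Rbbp4), and without replicate 1 of WT at 0 h Rbbp4 did not (limma adjusted p = 0.052) while Jarid2 did, at 0.23 (limma adjusted p = 0.040). Without either replicate of TKO at 4 h, the number passing was 4, with Ezh2 and Aebp2 added. After quantile normalisation the changes were 0.10 for both Rbbp7 and Rbbp4 and none of the 10 passed. Without scaling, the median over all tested genes fell by 0.11 and the changes were 0.12 for Rbbp7, 0.10 for Rbbp4 and -0.32 for Aebp2, with limma adjusted p-values of 0.038, 0.079 and 0.023. With the replicate number as a block, Aebp2 was added to those that passed (-0.17, limma adjusted p = 0.036). By limma voom, 4 passed, with Jarid2 and Aebp2 added. The share of all genes passing by limma voom, with the block or with a library left out was not counted.

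Eed and Jarid2, which the study also followed by RT-qPCR, did not pass the threshold in these libraries. In WT, Eed was at 289 and 283 scaled TPM at 0 h and 304 and 299 at 4 h (log2 change 0.077, SE 0.043, limma adjusted p = 0.18). In TKO it was at 195 and 189 at 0 h and 197 and 191 at 4 h (log2 change 0.012, SE 0.043, limma adjusted p = 0.87). Jarid2 changed by 0.14 in WT (SE 0.058, limma adjusted p = 0.078), from 204 and 181 to 216 and 209 scaled TPM, and by 0.046 in TKO (SE 0.058, limma adjusted p = 0.64), from 146 and 147 to 151 and 151. Without scaling, the changes of both were under 0 in both genotypes, between -0.085 and -0.016. The call for Jarid2 in WT differed by limma voom (limma adjusted p = 0.039).

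In TKO cells 0 of the 10 members passed after 4 h by limma, where 0.265% of all tested genes did. At an unadjusted p under 0.05 there were 4 (Rbbp4, Rbbp7, Aebp2 and Phf19), where 25% of all genes had one, and limma voom on recovered reads called 1, Rbbp4. The libraries did not overlap for 6 of the 10 (58.7% of all genes). Rbbp4 went from 170.1 and 169 to 185 and 201 scaled TPM (log2 change 0.18, SE 0.050, limma adjusted p = 0.12), and Rbbp7 from 342 and 336 to 365 and 380.0 (log2 change 0.14, SE 0.046, limma adjusted p = 0.14). Without replicate 1 of TKO at 4 h, members did pass: Rbbp4, Rbbp7 and Phf19 higher, Aebp2 and Mtf2 lower. That fit leaves 1 library in the group. The share of all genes passing in it, or by limma voom, was not counted. The 2 TKO libraries at 4 h lay far apart for Mtf2, at 146 and 123 scaled TPM, and for Aebp2, at 50.5 and 45.1.

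**Figure D4:**
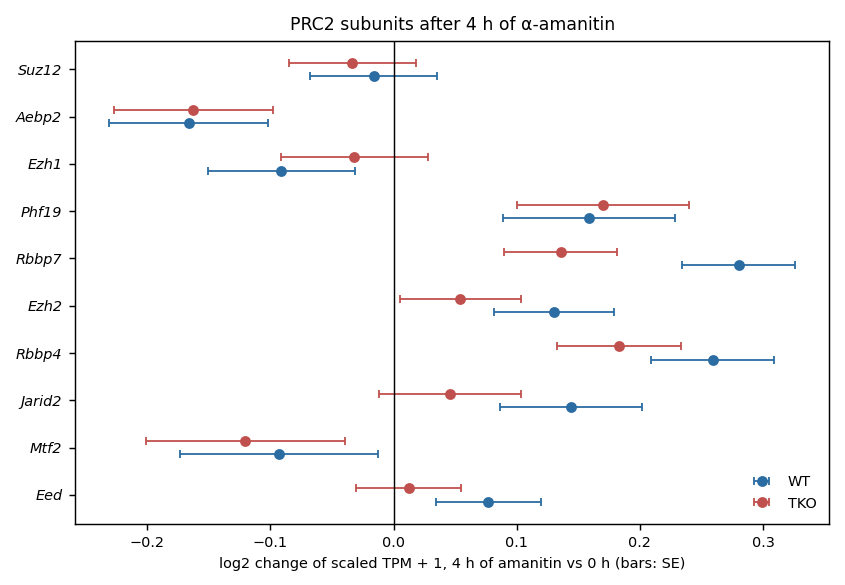
Log2 change of scaled TPM + 1 after 4 h of α-amanitin against 0 h in WT (blue) and TKO (red) ESCs; bars are SE. Rbbp7 and Rbbp4 in WT, at 0.28 and 0.26, are the only values past an adjusted p of 0.05; the bars of WT and TKO overlap for every gene other than Rbbp7.

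Whether the response to α-amanitin differed between TKO and WT was tested by the interaction term. None of the 10 members passed by limma, none had an unadjusted p under 0.05, and limma voom called none, where 0% of all genes passed and 7.54% had an unadjusted p under 0.05. The largest difference was that of Rbbp7, at -0.14 (SE 0.065, limma adjusted p = 0.67). For Eed it was -0.064 (SE 0.060, limma adjusted p = 0.75) and for Jarid2 -0.098 (SE 0.081, limma adjusted p = 0.73). A p that misses the threshold does not show that the responses were alike.

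Finally, polyA and ribodepleted libraries of WT ESCs were compared, since they give the members' levels by another selection of RNA. TPM in this paragraph are the deposited values unless called scaled, whereas log2 changes and folds are of scaled TPM + 1, so they differ in size. Ezh2 stood at 179.9, 179 and 181 TPM in the polyA libraries against 88.2 and 80.1 in the ribodepleted ones, a change of 0.99 (log2, SE 0.039, limma adjusted p = 7.28e-08). Jarid2 was also higher, 1.29-fold, with 266, 283 and 261 TPM against 211 and 179.8. Rbbp7 fell to 289, 282 and 292 TPM from 412 and 398 (log2 change -0.60, SE 0.039, limma adjusted p = 1.28e-06). For these 3 genes the libraries of the 2 kinds did not overlap. The same held for Phf19 (7.72, 8.11 and 7.97 TPM against 11.8 and 10.95) and Mtf2 (177, 169 and 176 TPM against 224 and 194). On scaled TPM, Suz12 (119, 115 and 123 against 139 and 129) and Aebp2 (37.3, 35.8 and 38.1 against 43.5 and 40.2) did not overlap either, though they did on deposited TPM. How many of all tested genes did not overlap between the 2 kinds was not counted. Phf19 (-0.57), Mtf2 (-0.36), Aebp2 (-0.17) and Suz12 (-0.17) were also lower. In all, 7 of 10 members passed, 2 higher and 5 lower, where 81% of the 12478 tested genes passed, 40.1% higher and 40.9% lower. Past the 1.5-fold limit were Ezh2, as 18.7% of genes on the higher side, and Rbbp7, as 16.4% on the lower. Rbbp7 fell short of the limit without scaling (-0.49), by quantiles (-0.55) and without polyA replicate 2 (-0.57). Phf19 passed it with a pseudocount of 0.1 (-0.62), by limma voom (-0.62) and without replicate 2 of WT at 0 h (-0.60). Eed, at 306, 298 and 318 TPM against 298 and 281, overlapped between the 2 kinds. Eed (-0.018), Ezh1 (0.00098) and Rbbp4 (-0.045) did not pass, with limma adjusted p-values of 0.72, 0.99 and 0.38. Without replicate 1 of WT at 0 h, Aebp2 did not pass either (limma adjusted p = 0.065), nor did it after quantile normalisation (limma adjusted p = 0.067) or on deposited TPM, where Suz12 also did not (limma adjusted p = 0.28 and 0.25).

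The balance between subunits therefore depended on the kind of library. The ratio of Ezh2 to Ezh1 was between 11.1 and 11.7 in polyA libraries and 5.62 and 5.80 in ribodepleted WT libraries at 0 h, and that of Suz12 to Ezh2 between 0.672 and 0.691 against 1.54 and 1.52. Rbbp4 to Rbbp7 stood between 0.784 and 0.812 against 0.536 and 0.550. Suz12 to Eed differed little, between 0.394 and 0.404 against 0.455 and 0.433. The 2 kinds of library differ in RNA selection and in depth. Sample titles do not say whether sequencing run and culture differed too, so these cannot be told apart from RNA selection. Chromosome medians of this comparison lay between -0.18, for chromosome 13, which holds Jarid2, and 0.091. Among other genes, Olig2 was listed at 0 in 2 of the 3 polyA libraries and at 0.0397 TPM in the third, beside 19.4 and 17.1 TPM in ribodepleted WT at 0 h.

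**Figure D5:**
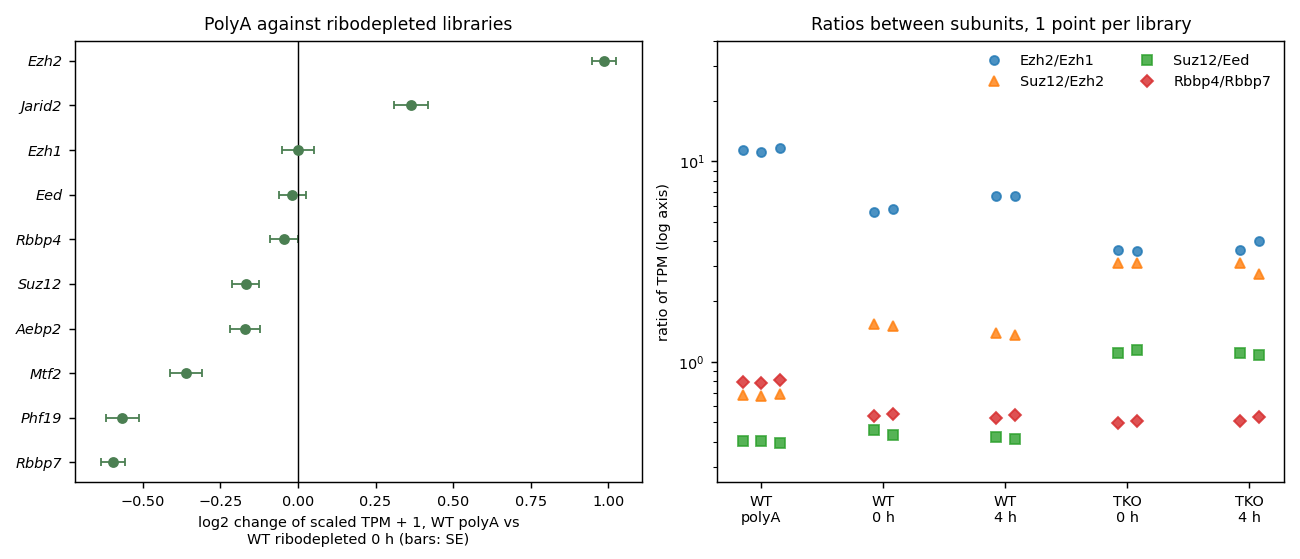
Left, log2 change of scaled TPM + 1 in WT polyA against WT ribodepleted libraries at 0 h, with SE. Right, ratios of deposited TPM between subunits (log axis), 1 point per library in the 5 groups: Suz12/Eed lies below 0.5 in WT libraries and above 1 in TKO libraries, and Ezh2/Ezh1 is highest in polyA and lowest in TKO libraries.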

How the data were processed

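Sample titles gave the groups and replicate numbers. The deposited files hold one TPM value per gene and library, which the authors computed from HTSeq counts after filtering with FastQC, AfterQC and Bowtie2, trimming with Trimmomatic and alignment with STAR to mm9 with RefSeq genes; versions and the strand setting are not given in the sources used here. Reads were recovered from the TPM steps for 100% of 19869 genes above 0 and used for depth and for limma voom. No pair of replicates agreed within sampling noise (chi-square per degree of freedom from 1.53 to 10.7).

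Size factors (median of ratios) scaled the TPM. Log2(scaled TPM + 1), which understates changes of low genes, went into limma (version 3.58.1, R version 4.3.3, eBayes with a trend) over the 8 ribodepleted libraries. PolyA and ribodepleted WT libraries were fitted separately. Tests were two-sided and took in genes whose mean scaled TPM exceeded 1, with Benjamini-Hochberg adjustment over all of them; a member passed at an adjusted p under 0.05. The study analysed raw counts; a log-scale model stood in for that. On simulated data of 12382 genes with the design of the 0 h comparison, 80% of log2 changes of 0.5 and 99% of changes of 1 were recovered. Same-numbered libraries did not deviate together (r from -0.044 to 0.12), so no block was used.

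Positions are those of GENCODE on NCBIM37 (mm9), and copies were searched with blastn 2.17.0. Named genes were the 10 members, the Tet genes, the 3 nearest genes of Eed and Jarid2 (1 of which is not reported here), and, of each further list, the 2 highest and 2 lowest passing changes in TKO at 0 h; other genes named with values (Phf1, E130012A19Rik, Kdm6a, Lcor, Lcorl and the overlapping genes) were chosen after their values were seen. Members and lists were chosen with earlier results of these data known. Alternatives were other scalings, pseudocounts, filters, models and libraries left out.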

Additional observations from a re-analysis of the deposited data

How the results depend on the processing

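At least 592 reads stood behind each value of a member, and what depth or the number of libraries limits was not tested apart. With one library left out, the lone library of its group was assumed to vary like the others. The TKO against WT value of each member was fitted in 19 alternative settings, which share most of their libraries. Of the 190 values of the 10 members at 0 h, 189 kept direction and side of the threshold. The exception was Ezh1 centred per chromosome (0.13, limma adjusted p = 0.11). At 4 h, 190 of 190 values kept both. With the 1.5-fold limit added, the numbers passing were 1 at 0 h, 2 at 4 h, 0 for α-amanitin in WT and 2 for polyA; they were 0 at both times when centred per chromosome, 1 at 4 h by quantiles, 1 for polyA without scaling and by quantiles, 3 for polyA with a pseudocount of 0.1 and by limma voom, and 1 to 2 (0 h), 2 to 3 (4 h) and 1 to 3 (polyA) with single libraries left out. Without the fold limit, the polyA number of 7 was 5 without scaling, 6 by quantiles and 6 without replicate 1 of WT at 0 h. Under α-amanitin, the number passing in WT was 0 after quantile normalisation, 4 by limma voom and 0 to 4 with single libraries left out; in TKO it was 1 by limma voom and 0 to 5 with single libraries left out. The replicate block, for numbers that did not pair the libraries, gave 3 in WT under α-amanitin and changed no other count of passing members. For limma voom, the block and libraries left out, the share of all genes passing was not counted.

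Direction turned only for values that had not passed; the cause was not tested. In WT under α-amanitin these were Eed (-0.083 without scaling, -0.089 by quantiles), Ezh2 (-0.028 without scaling) and Jarid2 (-0.016 and -0.023), and Suz12 ran from -0.069 to 0.034 with single libraries left out. In TKO they were Eed (-0.085 without scaling, -0.064 by quantiles, -0.0011 with the 2 groups alone), Ezh2 (-0.042 without scaling) and Jarid2 (-0.052 and -0.032); with single libraries left out, Eed ran from -0.0086 to 0.035, Suz12 from -0.074 to 0.0095 and Mtf2 from -0.24 to 0.0056. In the interaction they were Eed (0.025 by quantiles), Suz12 (0.044 without scaling, 0.019 by quantiles), Aebp2 (-0.0071 by quantiles), Mtf2 (0.035 and 0.058) and Phf19 (-0.028 by quantiles); with single libraries left out, Suz12 ran from -0.067 to 0.035, Aebp2 from -0.072 to 0.085, Mtf2 from -0.15 to 0.099 and Phf19 from -0.068 to 0.096. For polyA they were Eed (0.086 and 0.039) and Rbbp4 (0.059 without scaling); with single libraries left out, Eed ran from -0.044 to 0.020 and Ezh1 from -0.069 to 0.052.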

Other observations

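Further genes of the pathway also differed between polyA and ribodepleted WT libraries. Of the 4 measured accessory genes outside the 10 members, Phf1 (0.84) and E130012A19Rik (0.71) were higher in polyA libraries by limma on the log2 scale. Lcor (-1.17) and Lcorl (-0.36) were lower, and the limma adjusted p-values of the 4 were between 2.00e-06 and 0.00245. In this comparison 81% of all 12478 tested genes passed, 40.1% higher and 40.9% lower. The demethylase gene Kdm6b was at 23.5, 24.6 and 20.9 TPM in the polyA libraries against 1.89 and 1.28 in the ribodepleted ones at 0 h (log2 change 3.14, limma adjusted p = 2.06e-08), whereas Kdm6a changed by -0.72.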
